A study of Homo sapiens with 12 samples.

Results

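Chemokine ligand genes were followed through H3K27ac peak lists of RPMI 8226, an established human plasma cell line from multiple myeloma. The members were the RefSeq protein-coding genes whose symbols are CCL, CXCL, XCL or CX3CL followed by a number, with or without an L suffix, together with PF4 and PPBP, which are chemokines under older names. The rule gave 47 genes, and 45 of them lie on chromosomes 1 to 22 and X among the 19839 protein-coding genes placed there. CCL3L1 and CCL4L1 are placed on other sequences and were not measured. H3K27ac is a histone acetylation found at promoters and enhancers in use. It had been mapped by CUT&RUN, in which an antibody directs a nuclease to the marked chromatin and the released fragments are sequenced. The 4 groups were scramble control cells under DMSO, scramble control cells under 10 µM dexamethasone, CEBPB knockout cells under DMSO and CEBPB knockout cells under 10 µM dexamethasone, with 3 libraries each and 2 h given for the drug. Dexamethasone is a synthetic glucocorticoid that activates the glucocorticoid receptor, and CEBPB encodes a leucine zipper transcription factor. The labels leave unstated if the knockout line is clonal or pooled and if libraries of 1 group are separate cultures, so every p-value below measures the spread between these libraries, which may be technical.

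Chemokines are small secreted proteins that steer migrating cells by binding receptors that couple to G proteins. They are grouped by the spacing of their first cysteines into CC, CXC, XC and CX3C families, and many lie in tandem clusters on chromosomes 4 and 17. NF-κB, C/EBP and interferon-induced factors are known to act at many of their promoters, and glucocorticoids are known to lower the RNA of many inflammatory chemokines. In myeloma, CCL3 and CCL4 are known for their part in bone loss, and CXCL12 for holding plasma cells in the bone marrow.

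The promoters below are a selection from the members with peaks over a start site, namely CCL3, CXCL8, CXCL6 and CXCL3. CCL3L3 is added as the near copy of CCL3. Each printed promoter is the 250 bases before the RefSeq start on GRCh38.p14, written 5′ to 3′ along the gene. Capitals mark matches to TTGCNNAA (a C/EBP motif), GGNNNTTCC (an NF-κB motif) and TATAAA (the TATA box), all searched on both strands. CCL3 is taken from chr17:36090144-36090393 (minus strand), CCL3L3 from chr17:36196759-36197008 (minus), CXCL8 from chr4:73740319-73740568 (plus), CXCL6 from chr4:73836428-73836677 (plus) and CXCL3 from chr4:74038690-74038939 (minus).
CCL3: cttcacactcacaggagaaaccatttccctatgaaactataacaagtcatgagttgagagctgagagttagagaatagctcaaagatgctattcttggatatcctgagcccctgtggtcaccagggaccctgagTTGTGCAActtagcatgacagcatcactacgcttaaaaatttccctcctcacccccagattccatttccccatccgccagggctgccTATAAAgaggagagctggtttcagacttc
CCL3L3: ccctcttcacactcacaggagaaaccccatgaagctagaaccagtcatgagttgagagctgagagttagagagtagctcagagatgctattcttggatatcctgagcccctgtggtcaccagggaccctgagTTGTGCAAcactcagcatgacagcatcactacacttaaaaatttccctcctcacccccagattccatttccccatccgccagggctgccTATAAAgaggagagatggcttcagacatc
CXCL8: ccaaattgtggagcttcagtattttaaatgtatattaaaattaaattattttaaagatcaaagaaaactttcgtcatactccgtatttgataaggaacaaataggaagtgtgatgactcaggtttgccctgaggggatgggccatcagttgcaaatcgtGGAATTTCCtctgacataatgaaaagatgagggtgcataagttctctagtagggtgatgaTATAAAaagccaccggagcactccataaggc
CXCL6: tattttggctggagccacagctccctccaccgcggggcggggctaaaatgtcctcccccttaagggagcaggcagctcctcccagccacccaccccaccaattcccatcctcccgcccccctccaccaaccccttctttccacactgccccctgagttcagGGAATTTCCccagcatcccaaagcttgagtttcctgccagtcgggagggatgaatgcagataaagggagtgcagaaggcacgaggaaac
CXCL3: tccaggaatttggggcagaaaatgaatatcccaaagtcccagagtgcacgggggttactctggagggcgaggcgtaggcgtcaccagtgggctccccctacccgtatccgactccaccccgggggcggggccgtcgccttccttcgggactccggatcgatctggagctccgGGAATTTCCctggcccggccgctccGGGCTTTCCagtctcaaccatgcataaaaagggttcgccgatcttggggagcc

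The CCL3 and CCL3L3 promoters were identical at 234 of 244 aligned bases (95.9%), and each held TTGTGCAA, which is the C/EBP motif read on the opposite strand, and a TATA box. CXCL8, CXCL6 and CXCL3 shared GGAATTTCC, which matches the NF-κB motif on both strands and begins 91, 89 and 78 bases before the start. CXCL3 held a second NF-κB match, GGGCTTTCC. A promoter entry was found for 32 members. The C/EBP motif occurred in 5 of these (7.50% of 22156 protein-coding promoters of this length), the NF-κB motif in 13 (18.3%), the TATA box in 15 (9.0%) and the glucocorticoid receptor motif (AGAACA and TGTTC with any 3 bases between) in 0 (0.00451%). A member was counted if any of its promoter entries held the motif, whereas the percentages are per promoter entry. CXCL12 and CCL28, whose promoters are not printed, also had peaks over a start site (12 and 11 libraries). Neither held any of these motifs, so a peak over the start did not always go with a motif. A match of letters is a description and does not show that a factor binds.

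Per library there were 41164 to 56421 peaks over the 22 autosomes and X, which covered 48.0 to 66.4 Mb. Both the lowest and the highest of these values belonged to scramble libraries. The level used throughout is the length in kb covered by peaks from 25 kb before to 25 kb after a gene. Differences were taken on log2(covered bp + 500) after quantile normalisation, a scale that understates the change of low values, and tested with limma across all genes. A call required a Benjamini-Hochberg adjusted p under 0.05. CEBPB itself was covered over 3.97 to 6.14 kb in the 12 libraries, and its knockout difference did not pass (log2 -0.25, adjusted p = 0.37 under DMSO). Peaks around the gene do not show whether its coding sequence was disrupted. All 8 plasma cell markers, among them IRF4, PRDM1 and XBP1, lay near peaks in every library.

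Most chemokine ligand genes lay near the mark in these cells, but a minority had it at their start. Of the 45 placed members, 21 had covered bases in all 12 libraries, 13 in some libraries and 11 in none. Each library covered between 23 and 29 members, with a median of 28. The 11 members at 0 were XCL1 and XCL2, which encode the XC ligands; CCL20, the CCR6 ligand; CXCL2 and CXCL5 of the chromosome 4 cluster; CCL14, CCL15, CCL16 and CCL23 of the chromosome 17 cluster; and the copies CCL3L3 and CCL4L2. How reads that match several places were treated is not given in the sources used here, and the promoter identity above shows that CCL3 and CCL3L3 could share reads. PF4 and PPBP, the platelet chemokines, shared 1 peak of 0.321 kb in 1 knockout library under dexamethasone. CCL21, a CCR7 ligand, was covered in scramble DMSO libraries 1 and 3 with 0.899 and 1.33 kb. The 31 members covered in at least 3 libraries passed the filter and were tested. This was a smaller share than over all rows, where 17114 passed from 19839 protein-coding genes and 10 merged loci of neighbouring members.

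**Figure D1:**
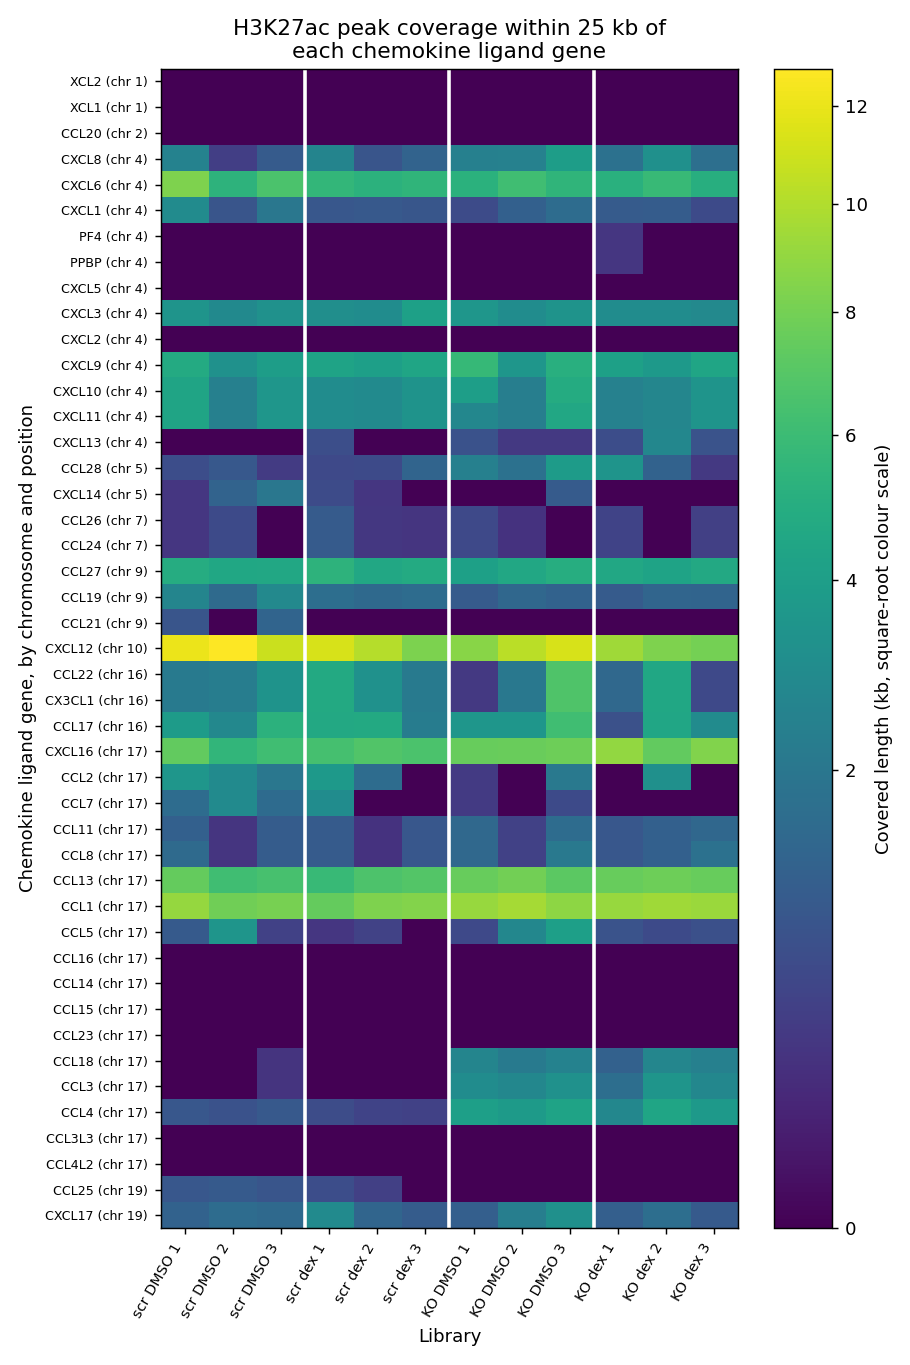
Covered length in kb (colour, square-root scale) within 25 kb of each of the 45 placed chemokine ligand genes (rows, by chromosome and position) in each of the 12 libraries (columns; white lines part the 4 groups). CCL18, CCL3 and CCL4 are brighter in the 6 knockout columns, and 11 rows are at 0 throughout.

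The members with the most covered sequence were CXCL12, CCL1, CXCL16, CCL13 and CXCL6. CXCL12, the CXCR4 ligand, ranged from 8.05 to 12.8 kb over the 12 libraries, with a median of 10.2. CCL1, a CCR8 ligand, ranged from 7.48 to 9.60 kb (median 8.97), and its neighbour CCL13, a ligand of CCR2 and CCR3, from 5.81 to 7.95 kb (median 7.32). CXCL16, a membrane-anchored ligand of CXCR6, ranged from 5.54 to 8.98 kb (median 7.40), and CXCL6, a CXCR1 and CXCR2 ligand, from 5.02 to 8.36 kb (median 5.48). Per length of window the same 5 led, with mean shares of 16.5% for CCL1, 15.6% for CXCL12, 13.6% for CCL13, 12.8% for CXCL16 and 11.1% for CXCL6. Neighbours in this order overlap in their ranges over libraries.

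Much of this cover lay outside the chemokine genes. The cover of CCL1 came mainly from 5 regions, each in 12 of 12 libraries. They begin 1.35 kb beyond CCL1 and reach from chr17:34364584 to chr17:34391751. The cover of CCL13 came mainly from the same regions except the last (chr17:34386523-34391751), which lies outside its window. The region at chr17:34382399-34383612, 19.2 kb from CCL1, had a median −log10 q of 86.7 and a median fold enrichment of 3.70, values given by the authors for each peak. No peak lay over the start of CCL1 or CCL13. Around CXCL16, 2 regions overlapped ARRB2, 1 overlapped MED11 and 1 overlapped both CXCL16 and ZMYND15. Around CCL27, a skin-homing ligand of CCR10, regions overlapped GALT and IL11RA, and around CXCL9, CXCL10 and CXCL11, the interferon-induced ligands of CXCR3, they overlapped SDAD1 and ART3. CXCL17 had its steady region in LIPE. For these members the covered length is largely a property of the neighbourhood. At CXCL16, which has no promoter entry, the region overlapping the gene (chr17:4738975-4740469) lay over its high-coordinate end and had peaks in 12 of 12 libraries.

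Peaks over the start site were fewer. Among the 32 members with a promoter entry, CXCL12, CXCL3 and CXCL6 had a peak over their start in 12 of 12 libraries. CCL28, a ligand of CCR10 and CCR3 that attracts antibody-secreting cells, had a peak over its listed start at chr5:43397137 in 11 libraries (5 scramble and 6 knockout). Its other listed start, at chr5:43412391, had a peak in no library. CXCL8, the neutrophil attractant interleukin-8, had one in 10 libraries (4 scramble and 6 knockout). CCL3 had one in 6 libraries, all of them knockout. CCL22 and CXCL10 had one in 1 knockout library each, and the other 24 had none. CCL5, a T cell and monocyte attractant with no promoter entry, had a region over 1 end of its gene (chr17:35879888-35880724) in 11 libraries. In 5 scramble libraries its fold enrichment was 2.68 to 3.23 and its −log10 q 0.82 to 1.83. In 6 knockout libraries these values were 5.79 to 7.32 and 7.62 to 12.5.

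The knockout comparison asks how the mark at these genes differs in cells without CEBPB. Under DMSO, 5 of the 31 tested members passed: CCL18, CCL3 and CCL4 rose, and CCL19 and CCL25 fell. The share called over all 17114 rows tested was 7.33%, with 3.79% higher and 3.54% lower. Under dexamethasone, 3 members passed, again CCL18, CCL3 and CCL4, all higher, against 7.64% of all rows (4.26% higher and 3.38% lower). Averaged over both treatments, 6 members passed (15.1% of all rows, with 8.1% higher and 6.95% lower), the same 5 as under DMSO and CXCL13, which rose. CCL18, CCL3 and CCL4 share peaks, so the 3 calls are not independent. CCL3, CCL18 and CXCL13 reached the filter of at least 3 covered libraries through the knockout libraries, and CCL25 through the scramble libraries. Their low genotype lay at or near 0, so the spread behind their p-values comes mostly from other libraries and genes. The p-values of these members are given as description and not as separate support. The median log2 difference over the tested members was 0.08 under DMSO, -0.19 under dexamethasone and -0.13 averaged, beside 0.01, -0.01 and -0.00069 over all rows.

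CCL3 (gene ID 6348, chr17:36088256-36090143) encodes a ligand of CCR1. It had no covered base in 5 of 6 scramble libraries and 0.290 kb in scramble DMSO library 3. Knockout libraries had 3.05, 2.75 and 3.27 kb under DMSO and 1.69, 3.49 and 2.75 kb under dexamethasone. Every knockout library stood above every scramble library. The difference was log2 2.65 ± 0.20 (SE, limma adjusted p = 6.12e-06) under DMSO and 2.61 ± 0.20 (adjusted p = 6.94e-06) under dexamethasone, so the knockout effect had nearly the same size with and without the drug.

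CCL4 (gene ID 6351, chr17:36103827-36105614), a close relative of CCL3 next to it, was covered in every library. Scramble libraries had 0.957, 0.819 and 0.996 kb under DMSO and 0.701, 0.523 and 0.474 kb under dexamethasone. Knockout libraries had 4.07, 3.79 and 4.32 kb under DMSO and 2.72, 4.45 and 3.73 kb under dexamethasone. The genotypes did not overlap. The differences were log2 1.67 ± 0.15 (limma adjusted p = 1.85e-05) under DMSO and 1.86 ± 0.15 (adjusted p = 8.14e-06) under dexamethasone.

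CCL18 (gene ID 6362, chr17:36064272-36072032), a lymphocyte attractant made by macrophages and dendritic cells, owes its window values to peaks on the CCL3 side. Scramble values were those of CCL3. Knockout libraries had 2.64, 2.12 and 2.54 kb under DMSO and 1.22, 2.68 and 2.44 kb under dexamethasone. The differences were log2 2.39 ± 0.22 (limma adjusted p = 3.16e-05) and 2.34 ± 0.22 (adjusted p = 3.74e-05). No peak lay over its start site, and with windows of 5 kb it was covered in fewer than 3 libraries and not tested. The chained locus from CCL16 to CCL4, which holds 7 members, had the same values as CCL4, because CCL16, CCL14, CCL15 and CCL23 were at 0.

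**Figure D2:**
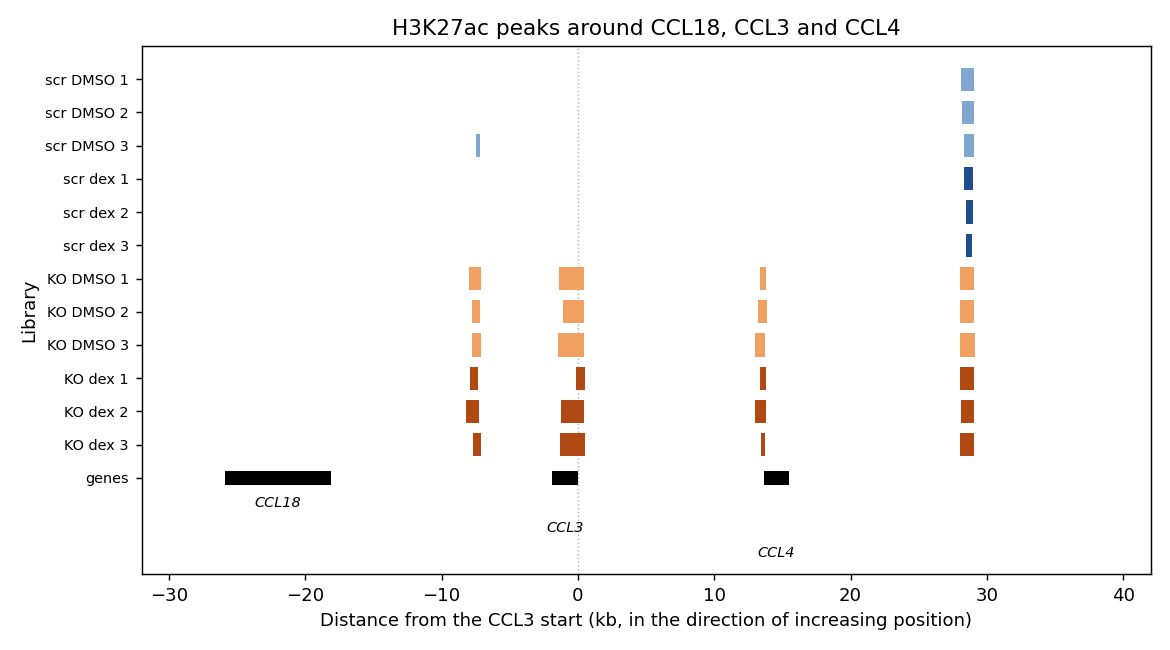
Peaks (coloured bars) of each of the 12 libraries around CCL18, CCL3 and CCL4 (black bars), by distance in kb from the CCL3 start in the direction of increasing position. Peaks near −8, 0 and 13 kb appear in all 6 knockout libraries, and the peak near 28 kb appears in all 12 libraries.

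The gain came from 3 regions. The first, chr17:36081938-36083032, lies 5.22 kb from the low-coordinate end of CCL3 in no gene and had a peak in 1 of 6 scramble and 6 of 6 knockout libraries. The second, chr17:36088714-36090674, overlaps CCL3 and contains its start site and the promoter printed above, and the third, chr17:36103099-36103994, overlaps the low-coordinate end of CCL4. Both had peaks in 0 of 6 scramble and 6 of 6 knockout libraries. Exon positions were not used here. Knockout peaks over the CCL3 start were 1809, 1568 and 1889 bp wide under DMSO and 657, 1733 and 1857 bp under dexamethasone, so dexamethasone library 1 had the narrowest. A further region, chr17:36118159-36119243, 12.5 kb past CCL4, was present in all 12 libraries. It covered 474 to 957 bp in scramble and 963 to 1041 bp in knockout libraries, which do not overlap.

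These were peaks of modest strength. Their median fold enrichment was 3.72 in the first region, 3.57 in the second and 3.73 in the third, and their median −log10 q was 2.47, 2.44 and 2.62. The median −log10 q of all peaks in a library lay between 2.37 and 4.31. When only peaks with −log10 q of at least 2 were kept, CCL18, CCL3 and CCL4 still passed under both treatments. Of 28 other tested genes within 1 Mb of CCL3, 0 were called higher in the knockout averaged over both treatments. In the same contrast 3 were called lower (SLFN12, SLFN13 and SLFN12L).

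CCL3 and CCL4 are also known as products of T cells and macrophages, so markers of those cells are given beside them. CD2 was at 0 in all 6 scramble libraries and had 0.315 to 2.19 kb in the 6 knockout libraries, and it rose with the knockout (limma log2 1.45, adjusted p = 0.018 under DMSO and 2.24, adjusted p = 0.0011 under dexamethasone). The other 3 of the 4 T cell markers did not pass, and their values had the opposite sign (under DMSO, log2 -1.16 for CD3E, -0.55 for CD3D and -0.47 for CD3G, adjusted p of 0.15, 0.18 and 0.28). CD3D and CD3G were covered in 12 libraries and CD3E in 8. The summed cover of the 4 markers was 1.94 to 5.62 kb in scramble and 2.65 to 5.92 kb in knockout libraries. All 5 myeloid markers were covered in every library, with sums of 25.7 to 32.8 kb in scramble and 25.8 to 38.2 kb in knockout libraries, and CD14 fell with the knockout under DMSO (limma log2 -0.86, adjusted p = 0.013). Of the 8 plasma cell markers, TNFRSF17 rose with the knockout under DMSO (limma log2 0.52, adjusted p = 0.030), and their sums were 61.1 to 77.4 kb in scramble and 72.6 to 83.8 kb in knockout libraries. Of 4 stromal markers, 0 passed, and COL1A2 and COL3A1 were at 0 in all 12 libraries. The part of other cells in the result was not tested.

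CXCL13 (gene ID 10563, chr4:77511753-77611834), the CXCR5 ligand that draws B cells into follicles, rose on average over both treatments. Scramble libraries were at 0 except dexamethasone library 1 with 0.732 kb. Knockout libraries had 0.821, 0.354 and 0.346 kb under DMSO and 0.714, 2.73 and 0.833 kb under dexamethasone. All 6 knockout libraries were above 0, but 3 of them lay below the single covered scramble library. The averaged difference was log2 1.15 ± 0.29 (limma adjusted p = 0.022), and neither single contrast passed (adjusted p = 0.28 and 0.061).

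Within CXCL13, a region at chr4:77586767-77587483 had peaks in 0 of 6 scramble and 6 of 6 knockout libraries, 336, 354 and 346 bp wide under DMSO and 440, 717 and 282 bp wide under dexamethasone. No peak lay over either listed start of the gene. The averaged call was lost when peaks with −log10 q under 2 were dropped (log2 0.40, adjusted p = 0.24). It was also lost without scramble dexamethasone library 2 or 3, knockout dexamethasone library 2 or knockout DMSO library 1, with an adjusted p between 0.050 and 0.052. In the single contrasts CXCL13 was called higher under dexamethasone with windows of 5 or 100 kb, with equal covered length per library and without scramble dexamethasone library 1, and under DMSO with equal covered length. Near chemokine ligand genes, 65 regions had peaks in at least 3 libraries. Of these, 31 were present in all 12, and 3 were in 6 of 6 knockout and 0 of 6 scramble libraries (4.62%, against 1.72% of 59735 regions genome-wide); these were the CXCL13 region and the regions at the CCL3 start and the CCL4 end. The opposite pattern occurred 0 times (2.66% genome-wide).

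CCL25 (gene ID 6370, chr19:8052341-8062650), the CCR9 ligand of gut and thymus, had no peaks in the knockout. Scramble libraries had 0.944, 1.04 and 0.885 kb under DMSO and 0.723, 0.454 and 0 kb under dexamethasone. All 6 knockout libraries were at 0, so the groups did not overlap under DMSO and met at 0 under dexamethasone. The difference was log2 -1.47 ± 0.30 (limma adjusted p = 0.012) under DMSO, -0.78 ± 0.30 (adjusted p = 0.17) under dexamethasone and -1.12 ± 0.21 (adjusted p = 0.0041) averaged.

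The main CCL25 region, chr19:8050269-8051080, lies 1.26 kb outside the gene and had peaks in 5 of 6 scramble and 0 of 6 knockout libraries, with fold enrichments from 3.75 to 4.92. A weaker region inside the gene (chr19:8055936-8056344) had peaks in scramble DMSO libraries 2 and 3. Of 47 other tested genes within 1 Mb, 7 were called lower and 0 higher in the knockout averaged over both treatments. Among the 7 was FBN3, whose gene holds 1 of the CCL25 window's peaks. With windows of 100 kb CCL25 no longer passed (log2 -0.35, adjusted p = 0.43 under DMSO).

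CCL19 (gene ID 6363, chr9:34689570-34691276), a CCR7 ligand that guides lymphocytes into lymph nodes, was lower in the knockout. Scramble libraries had 2.67, 1.55 and 2.83 kb under DMSO and 1.69, 1.49 and 1.60 kb under dexamethasone. Knockout libraries had 1.07, 1.44 and 1.26 kb under DMSO and 1.07, 1.35 and 1.34 kb under dexamethasone. The genotypes did not overlap, and the lowest scramble library (1.49 kb) lay just above the highest knockout library (1.44 kb). The difference was log2 -0.67 ± 0.17 (limma adjusted p = 0.030) under DMSO, -0.33 ± 0.17 (adjusted p = 0.29) under dexamethasone and -0.50 ± 0.12 (adjusted p = 0.013) averaged.

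No peak lay over the CCL19 start. The high values of scramble DMSO libraries 1 and 3 include a weak peak of 899 and 1331 bp over CCL21 and PHF24 (chr9:34708721-34710051), with −log10 q of 0.782 and 0.582, which the 10 other libraries lacked. The part of its window covered in all 12 libraries belonged to a region at chr9:34664275-34666336, which overlaps LOC730098 and PHF24 and lies nearer to CCL27. The DMSO call was lost without scramble DMSO library 1 or 3 or knockout DMSO library 1 or 3 (adjusted p of 0.072 to 0.11), with 100 kb windows (log2 -0.22), with peaks of −log10 q of at least 2 (log2 -0.33), with equal covered length per library (log2 -0.28) and without quantile normalisation (adjusted p = 0.062). With peaks of −log10 q of at least 2, CCL19 was instead called lower under dexamethasone. Of 38 other tested genes within 1 Mb of CCL19, 0 were called in either direction in the knockout averaged over both treatments.

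**Figure D3:**
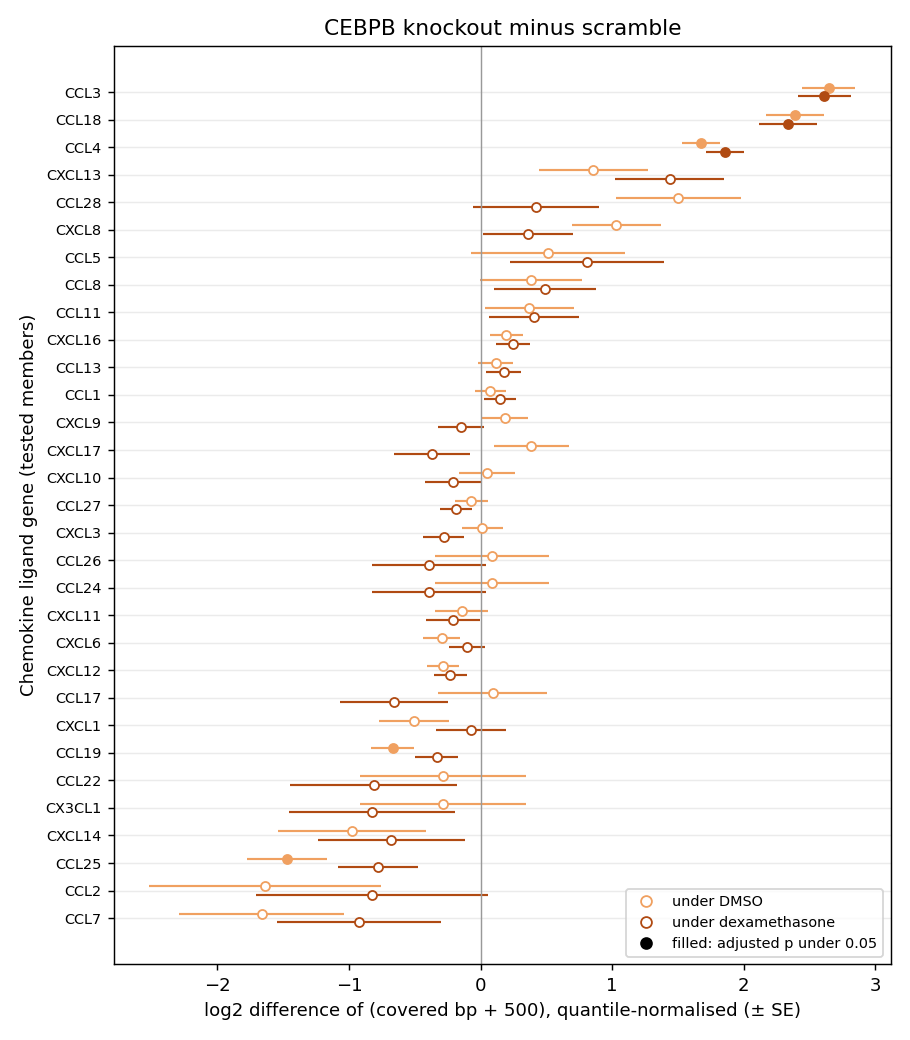
Knockout minus scramble difference of log2(covered bp + 500) with its standard error for the 31 tested chemokine ligand genes, under DMSO (light) and dexamethasone (dark), with filled points where the adjusted p is under 0.05. CCL3, CCL18 and CCL4 lie right of 1.6 in both, and CCL19 and CCL25 are filled on the left under DMSO.

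Counted by groups that do not overlap, whether called or not, 6 members were higher and 3 lower in the knockout under DMSO (13.1% and 9.05% of all rows), and 7 were higher and 2 lower under dexamethasone (17.7% and 8.9%). Under DMSO these counts include the 5 called members, and under dexamethasone the 3 called ones. CCL28 had 0.722, 0.967 and 0.383 kb in scramble DMSO libraries and 2.42, 1.77 and 3.87 kb in knockout DMSO libraries. These groups did not overlap, and the difference was log2 1.50 ± 0.48 (limma adjusted p = 0.091). Under dexamethasone CCL28 scramble libraries had 0.622 to 1.34 kb and knockout libraries 0.358 to 3.42 kb, which overlap. The extra cover lay in a broad region 13.7 kb outside CCL28 (chr5:43426074-43430122) with peaks in 2 of 6 scramble and 5 of 6 knockout libraries.

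CCL7, a monocyte attractant that binds CCR2, had 1.60, 2.91 and 1.58 kb in scramble DMSO libraries and 0.367, 0 and 0.653 kb in knockout DMSO libraries. The groups did not overlap, and the difference was log2 -1.66 ± 0.63 (limma adjusted p = 0.16). In scramble cells under dexamethasone CCL7 had 3.05, 0 and 0 kb, a spread within 1 group larger than the difference between groups. Its neighbour CCL2, the principal monocyte attractant of the cluster, shared most of these peaks and ranged from 0 to 3.72 kb in scramble and from 0 to 3.24 kb in knockout libraries. CCL5 ranged from 0 to 3.51 kb in scramble and from 0.629 to 4.08 kb in knockout libraries, and did not pass (limma adjusted p = 0.52 under dexamethasone). Under dexamethasone its groups did not overlap, with 0 to 0.489 kb in scramble and 0.655 to 0.831 kb in knockout libraries. Among peaks with −log10 q of at least 2, CCL5 was called higher in the knockout under both treatments and CXCL8 under DMSO.

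Among the chromosome 4 ligands of CXCR1 and CXCR2, CXCL6 and CXCL3 had peaks over their starts throughout. The region over the CXCL6 start (chr4:73836402-73837638) had peaks of 711 to 1187 bp in all 12 libraries, with a median fold enrichment of 5.41. The region over the CXCL3 start (chr4:74038388-74039180) had peaks of 419 to 753 bp in all 12, and a stronger region 15.5 kb away (chr4:74054225-74056335) had a median −log10 q of 28.0. CXCL3, a neutrophil attractant, ranged from 2.82 to 4.17 kb and differed by log2 0.01 ± 0.15 under DMSO (adjusted p = 0.99). CXCL6 differed by log2 -0.30 ± 0.14 (adjusted p = 0.26). Between these, CXCL5 and, further along, CXCL2 were at 0 in all 12 libraries, and CXCL1 had no peak over its start.

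CXCL8 varied more. Its window held 2.51, 0.439 and 1.07 kb in scramble DMSO libraries and 2.42, 2.48 and 3.99 kb in knockout DMSO libraries. Scramble DMSO library 1 overlapped the knockout range, and the difference was log2 1.03 ± 0.34 (limma adjusted p = 0.10). The region over its start (chr4:73739684-73741657) had no peak in scramble DMSO libraries 2 and 3 and peaks of 302 to 1214 bp in the 10 other libraries, with fold enrichments from 3.90 to 5.83. A region 13.3 kb past CXCL6, over PF4V1 (chr4:73852070-73853607), went the other way, with peaks in 5 of 6 scramble and 1 of 6 knockout libraries.

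The dexamethasone comparison asks whether 2 h of the drug moved the mark at these genes. By limma, in scramble cells 0 of 31 tested members passed (0.0234% of all rows), in knockout cells 0 (0.0175%), and averaged over both genotypes 0 (0.0409%). With few calls anywhere in the genome, a count of 0 among 31 members is near the background. At an unadjusted p under 0.05, there was 1 member in scramble cells, 1 in knockout cells and 2 in the average, beside 1314, 1083 and 1490 of the 17114 rows. The members' median log2 difference was 0.05 in scramble and -0.09 in knockout cells, beside 0.03 and 0.02 over all rows.

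The largest averaged drug difference by p was at CCL5, with log2 -1.13 ± 0.41 (limma adjusted p = 0.46). CCL25 in scramble cells differed by log2 -0.69 ± 0.30 (adjusted p = 0.63), and CXCL13 in knockout cells by 0.97 ± 0.41 (adjusted p = 0.74). CCL4 and CCL25 were the members whose DMSO and dexamethasone groups did not overlap in scramble cells, both lower (8.96% of all rows were lower in this sense and 2.07% higher). At CCL4 the scramble levels listed above differed by log2 -0.26 ± 0.15 (adjusted p = 0.73). In knockout cells CXCL3 alone had groups that did not overlap, with 3.05 to 3.54 kb under DMSO and 2.82 to 3.03 kb under dexamethasone (8.94% of all rows were lower and 3.76% higher).

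The interaction, which asks whether the drug response differed between genotypes, passed at 0 of 31 members (0.0117% of all rows), with 0 at an unadjusted p under 0.05, beside 910 of the 17114 rows. At CCL3 it was log2 -0.03 ± 0.28 and at CCL4 0.18 ± 0.21. A p that misses the threshold does not show that the drug responses were equal.

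**Figure D4:**
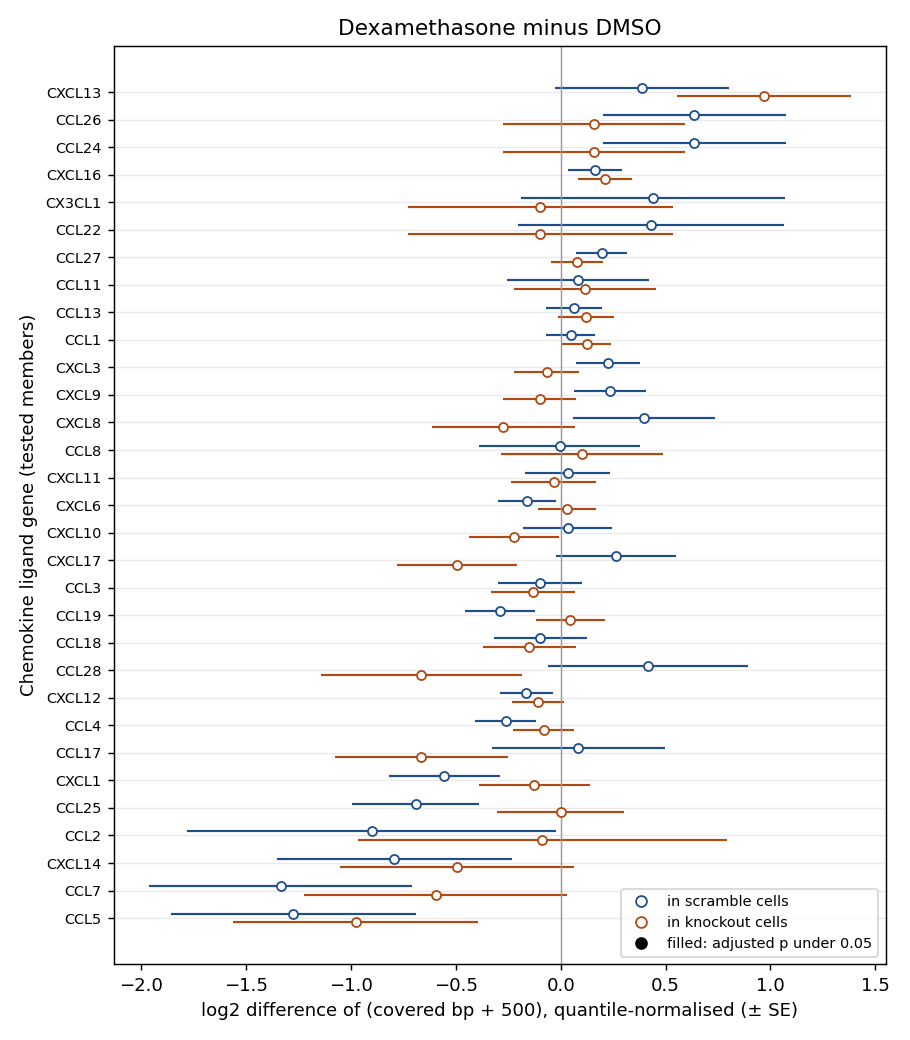
Dexamethasone minus DMSO difference of log2(covered bp + 500) with its standard error for the 31 tested chemokine ligand genes, in scramble (blue) and knockout (red) cells. No point is filled, since 0 members had an adjusted p under 0.05.

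The receptors for these ligands were examined in the same table. Of 18 chemokine receptor genes 16 were tested, and CCR6, the CCL20 receptor, was the single call. It was covered over 2.73 to 4.63 kb in scramble and 5.40 to 7.26 kb in knockout libraries, and rose under DMSO by log2 1.01 ± 0.15 (limma adjusted p = 0.0011) but did not pass under dexamethasone (0.50, adjusted p = 0.063; interaction adjusted p = 0.89). CCR1, which binds CCL3, did not pass in any contrast. CXCR4, the CXCL12 receptor, had higher levels in every dexamethasone library than in every DMSO library of its genotype, with log2 0.51 ± 0.15 in scramble and 0.59 ± 0.15 in knockout cells, and did not pass (adjusted p = 0.39 and 0.44). Of 5 atypical receptors, which bind chemokines without G protein signalling, 4 were tested and ACKR4 rose in the knockout under DMSO (log2 1.30 ± 0.31, adjusted p = 0.027), with -0.18 ± 0.31 under dexamethasone (adjusted p = 0.83; interaction adjusted p = 0.68).

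Of 14 genes known to regulate chemokine transcription, all tested, NFKB1, which encodes the p105 precursor of an NF-κB subunit, fell in the knockout. It was covered over 4.60 to 6.52 kb in scramble and 1.70 to 4.37 kb in knockout libraries, with log2 -1.05 ± 0.17 (limma adjusted p = 0.0023) under DMSO and -0.63 ± 0.17 (adjusted p = 0.041) under dexamethasone. REL, another NF-κB subunit, rose with dexamethasone averaged over genotypes (log2 0.81 ± 0.10, adjusted p = 0.017). NFKBIA, which encodes an inhibitor of NF-κB, and NR3C1, which encodes the glucocorticoid receptor, did not pass in any contrast.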

How the data were processed

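The deposited data are 12 lists of broad H3K27ac peaks, 1 per CUT&RUN library. Bowtie2 2.4.2, MACS3 3.0 and hg38 are named in the submitters' processing notes. Peak start and end are 0-based positions as deposited (unit other). The deposited score column and −log10 p were not used. The deposited fold enrichment is a ratio, and the deposited lists also give −log10 q; the lowest −log10 q in a library was 0.523 to 0.535. The lists hold no read counts, so depth is unknown and no counting interval is given. Peaks off chromosomes 1 to 22 and X (213 to 296 per library) were left out.

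Covered base pairs within 25 kb of each RefSeq gene (GRCh38.p14), and of the union of windows of neighbouring members (10 chained loci), were summed. Rows covered in at least 3 libraries were tested with limma 3.58.1 in R 4.3.3 (trend and robust, 8 residual degrees of freedom, 1 mean per group), on quantile-normalised log2(bp + 500), with Benjamini-Hochberg adjustment over 17114 rows. Overlapping peaks of the 12 libraries were merged into regions. Promoters are from RefSeq. The procedure was tested on simulated data. All members could be named, with full values for calls, for the largest differences without overlap, for the 5 most covered and for CEBPB. Members and lists were chosen with earlier results of these data known. CCL28, CCL7, CXCL8, CCL5 and CXCL3 are described with values although outside that rule, chosen after their values were seen. Results for some listed or neighbouring genes are not reported here. Alternatives were windows of 5 and 100 kb, stronger peaks, other scalings, filters, offset and test options, a replicate block and leaving out each library.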

Additional observations from a re-analysis of the deposited data

How the results depend on the processing

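The counts of members called for dexamethasone in scramble cells, in knockout cells and averaged, and for the interaction, were 0 under every alternative and without each library. With windows of 5 kb the knockout count under DMSO was 3. With windows of 100 kb it was 8 under DMSO, 7 under dexamethasone and 14 averaged, and the median number of members covered per library was 42.5; wider windows take in more distant peaks, and members of 1 cluster then share them. With peaks of −log10 q of at least 2, the knockout count under dexamethasone was 5. Leaving out 1 library at a time gave 4 to 6 calls for the knockout under DMSO, 3 to 4 under dexamethasone and 5 to 8 averaged. The members tested numbered 23 with windows of 5 kb, 44 with windows of 100 kb and 27 with the stronger peaks, beside 31. Shares over all rows under these settings are not given here, so these counts are not read against the background. CCL3 and CCL4 kept their knockout calls under every alternative and without each library, with log2 differences of 2.46 to 2.83 for CCL3 and 1.61 to 1.99 for CCL4 over the single contrasts when a library was left out. CCL18 did so wherever it was tested. CCL25 was called under DMSO and in the average wherever it was tested except with 100 kb windows (log2 -0.35 and -0.48); it was not tested where cover in 6 libraries was required. The averaged CCL19 call was lost with 100 kb windows (log2 -0.23, adjusted p = 0.086) and with stronger peaks (log2 -0.90, adjusted p = 0.057), and the losses of the CCL19 call under DMSO and of the CXCL13 call are given above; the cause was not tested. No difference changed sign.

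Libraries with the same replicate number did not deviate together (correlations of -0.079 to 0.095 over 18 pairs, 0 of them above 0.1), so the numbers were not taken as pairs. With the replicate block, the counts were 5 for the knockout under DMSO, 3 under dexamethasone, 6 averaged and 0 for each drug contrast and the interaction.

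The lists give covered length without read depth, so signal below the peak caller's threshold is not seen, and a gained peak cannot be told apart from a rise past that threshold. Windows ignore which gene a peak acts on, and overlapping windows share peaks.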

Other observations

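Where members shared a cluster, the chemokine ligand genes fell into neighbourhoods with unlike values. On chromosome 17 the locus from CCL2 to CCL1, with 6 members, was covered over 9.45 to 14.2 kb in the 12 libraries, while the locus from CCL16 to CCL4 ranged from 0.474 to 4.45 kb and that of CCL3L3 and CCL4L2 was at 0. On chromosome 16 the locus of CCL22, CX3CL1 and CCL17, ligands of CCR4 and CX3CR1, ranged from 2.25 to 9.44 kb, with both extremes in knockout libraries. On chromosome 4 the locus from CXCL9 to CXCL11 ranged from 3.26 to 6.04 kb. No locus other than CCL16 to CCL4 was called in any contrast.

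CXCL14, an epithelial chemokine on chromosome 5, had 0.316, 1.30 and 2.01 kb in scramble DMSO libraries and 0, 0 and 1.06 kb in knockout DMSO libraries, which overlap. A region at chr10:44388958-44389721, 3.86 kb outside CXCL12, had peaks in 5 of 6 scramble and 0 of 6 knockout libraries, with fold enrichments from 1.61 to 2.06, while the 3 regions covered in all 12 libraries, among them the CXCL12 start, were present in both genotypes.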
